A study of Mus musculus with 16 samples.

Results

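Zfp genes carry the mouse nomenclature root for zinc finger proteins. The genes described here are those whose name on the array is Zfp followed by a number, without Zfp36, whose CCCH fingers bind RNA. Of 336 such genes on the array, 170 were kept because the brightest probe of each was flagged as well above background for both dyes on 6 or more of the 8 arrays of each genotype. The same filter kept 8249 of 22393 genes in all, so 8079 other detected genes served for comparison. The detection flags chose the members, and levels are therefore given as a description. All 170 names matched a RefSeq gene, and 169 of these genes are protein coding. RefSeq now uses another symbol for 8 of them, among them Zpr1 for Zfp259, Champ1 for Zfp828 and Zfp24 for Zfp191.

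The cells were lymph node T cells of OT-1het Rag-/- mice, either otherwise wild type (WT) or Lck-/-. Both genotypes thus share the OT-1 T cell receptor, which recognises the ovalbumin peptide SIINFEKL, and the Rag deletion, which prevents rearrangement of other antigen receptors. Both were stimulated with 100 nM of that peptide for 24 h and then treated with cycloheximide at 100 µg/ml for 10 min, which keeps ribosomes on their mRNAs. Sucrose gradients of 10 to 50% separated each lysate, and fractions 1 to 5 formed the sub-polysomal pool and fractions 6 to 10 the polysomal pool. Each of 8 extracts, 4 per genotype, was measured on 2 arrays with exchanged dyes, and each array set both pools of an extract against each other. Age and sex are not in the labels, which also do not say whether the replicates were separate animals or cultures, or what OFF beside Lck-/- in the series title means. P-values therefore measure only the spread between these extracts, which may be technical. The ratio below is log2 of polysomal over sub-polysomal intensity after loess, which sets the typical probe near 0. A level is the log2 intensity of a pool.

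Most proteins named Zfp hold arrays of zinc fingers in which cysteines and histidines grip a zinc ion, and neighbouring fingers are joined by a short conserved linker. Many of the genes lie in clusters that arose by duplication. A large share of their proteins also carry a Krüppel-associated box (KRAB), which recruits the corepressor Trim28, the histone methyltransferase Setdb1 and HP1 proteins to silence transposable elements and some genes. In mouse T cells, loss of Trim28 is known to disturb activation. Polysomal mRNAs carry several ribosomes, while the sub-polysomal pool holds mRNAs with few or none.

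In WT replicates 1 and 2 the array and its dye swap went against each other. Deviations of the ratio from the mean of the same genotype and dye orientation correlated at -0.831 and -0.81 within these extracts, and at 0.459 to 0.844 within the other 6. Exchanging their dye-swap arrays gave 0.867 and 0.938, so counts are also given with this exchange, called crossed dye swaps, and without both extracts. Crossing leaves the WT mean nearly unchanged and alters its spread. Over all 8249 genes it cut the calls between genotypes from 319 to 41 for the ratio. The cut was from 1272 to 430 for the polysomal level and from 1792 to 922 for the sub-polysomal level. For the mean of both fractions it was from 1702 to 1463. Standard errors and adjusted p below rest on the labelled pairing unless stated, so they may be too small. Between 14586 and 50750 probes per array were well above background in the polysomal channel and between 12514 and 30947 in the sub-polysomal channel. The count of 50750 came from an array of Lck-/- replicate 1, and the next highest polysomal count was 26625. Of the 170 members, 147 to 170 were well above background in both channels. Lck itself read 15.03 ± 0.21 in WT and 14.18 ± 0.13 in Lck-/- (SD, n = 4 each) in the mean of both fractions, a fall of 0.85 (limma adjusted p = 0.004). It read 15.08, 15.16, 14.72 and 15.17 in WT and 14.18, 14.36, 14.04 and 14.14 in Lck-/-, so the groups stood apart and most of the Lck signal remained in Lck-/-. Where the probe lies relative to the deleted part is not given in the sources used here, so this signal does not check the genotype labels. All 8 T cell markers were detected. The B cell markers Cd79a and Ms4a1 were not well above background and neither were the NK and stromal markers, while Cd79b, Csf1r, H2-Ab1 and Itgam passed. Of the 3 myeloid markers that passed, H2-Ab1 and Itgam stood at 10.87 and 10.49 in WT and at 9.89 and 9.79 in Lck-/-, and Csf1r at 9.63 in WT and 9.91 in Lck-/-. The summed level of the 6 myeloid markers measured ranged from 11.71 to 12.30 in WT and from 11.38 to 11.86 in Lck-/-, and its part in the results was not tested.

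The first comparison asks where the detected Zfp mRNAs lay between the pools. They lay further from polysomes than other detected mRNAs in both genotypes. The median ratio over the 170 genes was -0.338 in WT, against 0.052 over the other genes. In Lck-/- it was -0.29 against -0.026. Per extract, the median of the Zfp genes was -0.314 ± 0.071 in WT and -0.267 ± 0.165 in Lck-/- (SD, n = 4 each). In a bulk sample, fewer cells of a type and less RNA per cell cannot be told apart.

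In WT the per-extract medians of the Zfp genes were -0.24, -0.28, -0.33 and -0.41, and those of the other genes 0.07, 0.06, 0.07 and 0.03. In Lck-/- the Zfp medians were -0.49, -0.29, -0.18 and -0.11, and the other medians -0.14, 0.03, 0.02 and 0.04. The Zfp median was below the other median in every extract. With crossed dye swaps the Zfp medians of WT replicates 1 and 2 were -0.304 and -0.126. With arrays as labelled, the gap between the Zfp and other medians was -0.369 ± 0.057 in WT, from -0.434 to -0.309. In Lck-/- it was -0.253 ± 0.096, from -0.351 to -0.152. These ranges overlapped between the genotypes. The WT spread and range rest on the labelled pairing, and gaps of single extracts with crossed dye swaps were not computed. The gap was below 0 on each of the 16 arrays, which covers both slides and both dye orientations. It was so with loess, without normalization and in Agilent's processed signals. Median centring shifts all genes of an array alike, so it leaves the gap found without normalization as it is by construction.

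**Figure D1:**
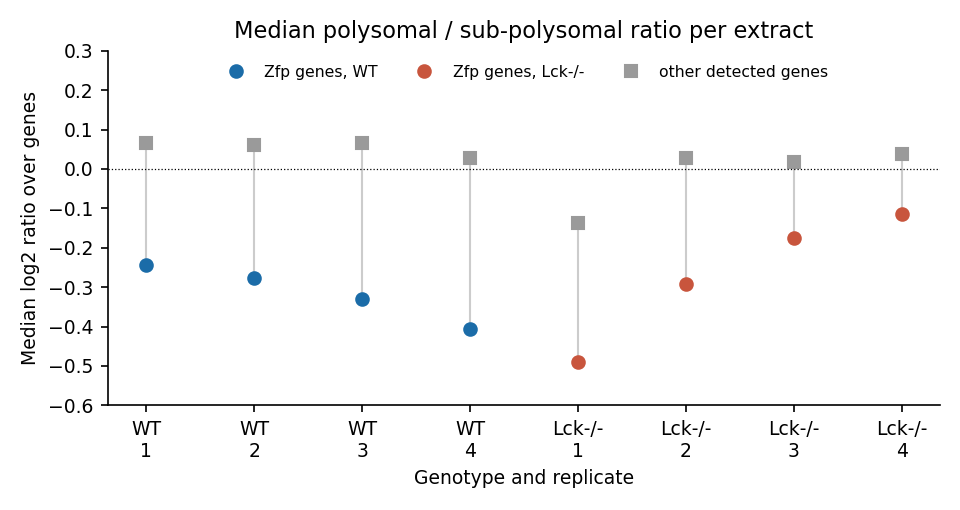
Median log2 ratio of polysomal over sub-polysomal signal in each of the 8 extracts (x axis, genotype and replicate), over the 170 detected Zfp genes (circles) and the 8079 other detected genes (squares). With arrays as labelled, the circle lies below the square in every extract, by 0.309 to 0.434 in WT and by 0.152 to 0.351 in Lck-/-.

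Tested against 0 in limma, 88 of the 170 Zfp genes (51.8%) were lower and 20 (11.8%) higher in WT at adjusted p below 0.05. Over all 8249 genes 28.8% were lower and 33.5% higher (62.3% in either direction). In Lck-/-, 79 Zfp genes (46.5%) were lower and 19 (11.2%) higher, where 29.2% and 27.0% of all genes were (56.2% in either direction). In both genotypes 69 were lower and 16 higher, and 0 were lower in one and higher in the other. The position of 0 depends on the scaling. With median centring 100 were higher and 3 lower in WT, where 84.3% of all genes passed in either direction. In the authors' ratios 158 were higher and 3 lower, where 96.2% of all genes passed. The Zfp median stayed below the other median, at 0.597 against 1.063 and 1.333 against 1.785. Without the filter, over all 336 genes, the WT medians were -0.074 and 0.01. With crossed dye swaps 67 were lower and 11 higher in WT (46.3% of all genes in either direction). Leaving out WT replicates 1 and 2 gave 70 and 10 (44.0% of all genes).

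**Figure D2:**
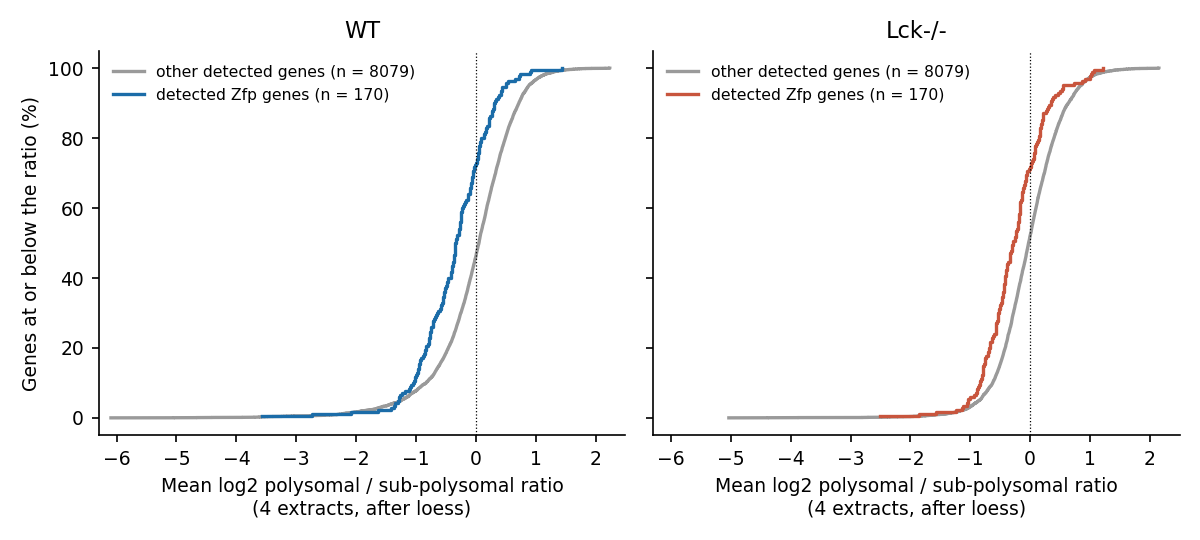
Share of genes at or below each mean log2 ratio (4 extracts per genotype) for the 170 detected Zfp genes (coloured) and the 8079 other detected genes (grey), in WT (left) and Lck-/- (right). The Zfp curve lies to the left over most of its range, with medians of -0.338 against 0.052 in WT and -0.29 against -0.026 in Lck-/-, and the curves meet in the low tail.

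The probes of Zfp genes were dimmer than those of other detected genes, and intensities of different probes are not amounts of RNA. The median level in WT, as the mean of both fractions, was 9.29 for the Zfp genes (range 7.94 to 17.04) and 10.34 for the others. When the 8249 genes were divided by this level into 3 classes of about equal size, 94 Zfp genes fell in the dimmest, 57 in the middle and 19 in the brightest class. The median WT ratio of the Zfp genes was below that of the others in each, at -0.233 against 0.026, -0.413 against 0.077 and -0.678 against 0.052. Over the 170 genes the ratio in WT followed the level with r = -0.4 and the GC content of the probe with r = 0.019, and the probes of all genes share the arrays. Ratios in WT and Lck-/- followed each other with r = 0.835. Of the 35 Zfp genes with a second detected probe, 33 had WT ratios of the same sign from both probes (r = 0.757).

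Other zinc finger families, chosen by name, had higher median ratios. The WT median was -0.159 for 9 Zkscan and Zscan genes, -0.027 for 17 Zbtb genes, -0.046 for 14 Klf and Sp genes and 0.273 for 12 CCCH genes. No test was made between families.

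The Zfp genes with the highest ratio in WT were Zfp106, Zfp828, Zfp251, Zfp568 and Zfp146. Zfp106, an RNA-binding protein needed in motor neurons of mouse, read 1.44, 1.55, 1.41 and 1.38 in WT and 0.60, 1.24, 1.21 and 1.83 in Lck-/-. Its 8 extracts all lay on the polysomal side. Zfp828, known as Champ1 and needed for the attachment of chromosomes to spindle microtubules, averaged 0.92 ± 0.08 in WT and 1.02 ± 0.53 in Lck-/- (SD, n = 4 each). Zfp251 averaged 0.90 ± 0.11 in WT, and Zfp146, a protein made almost wholly of fingers, 0.72 ± 0.18. Zfp568, a KRAB protein that silences a placental Igf2 transcript in mouse, averaged 0.73 ± 0.07 in WT. None of these genes passed the test of a ratio difference between genotypes.

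The lowest WT ratios belonged to Zfp408, Zfp658, Zfp488, Zfp663 and Zfp932. Zfp488, a regulator of oligodendrocyte differentiation, read -1.79, -2.25, -3.49 and -0.81 in WT and -1.64, -0.96, -2.49 and -2.32 in Lck-/-. Every extract was low, and the 4 WT values spread over more than those of most members (SD 1.11). Zfp663 averaged -1.64 ± 0.91 and Zfp932 -1.42 ± 0.36 in WT. In the authors' ratios these WT values of Zfp663 and Zfp932 were 0.126 and 0.34. Those ratios place 0 elsewhere, and both values lay below the WT median of the other genes there, 1.785. With each column of those ratios centred, neither value reversed. Zfp408, whose human counterpart is tied to retinal vessel disease, and Zfp658 are described with the ratio difference.

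The second comparison asks which Zfp mRNAs changed their ratio between genotypes. Only Zfp408 and Zfp658 passed, both higher in Lck-/-, so 1.18% of the 170 genes rose and 0.00% fell, where 2.81% of all genes rose and 1.05% fell (3.87% in either direction). The median difference of the 170 genes was 0.052, against -0.039 for the others, and 105 differences were above 0. Of the 170, 22 had an unadjusted p below 0.05, and 11 had no overlap of the 4 and 4 extracts (14.5% of all genes). On slide 1 alone and on slide 2 alone the count was 2 each (2.76% and 0.824% of all genes). Without Lck-/- replicate 1 it was 5 (4.06% of all genes). With median centring 1 rose and 43 fell and in the authors' ratios 1 and 142 (56.7% and 90.3% of all genes in either direction). Those scalings moved the median of the other genes to -0.785 and -1.16, and the Zfp medians, at -0.53 and -0.905, stayed above it.

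Zfp408 read -3.77, -3.53, -4.01 and -2.98 in WT and -1.84, -1.07, -1.13 and -0.55 in Lck-/-. All WT values lay below all Lck-/- values, and the difference was 2.43 (SE 0.28, limma adjusted p = 0.00157). Its sub-polysomal level was 17.90, 18.02, 17.75 and 17.60 in WT and 17.15, 16.89, 16.40 and 16.19 in Lck-/-, a fall of 1.16 (SE 0.20, limma adjusted p = 0.00454). Its polysomal level was 14.14, 14.50, 13.74 and 14.62 in WT and 15.31, 15.82, 15.27 and 15.65 in Lck-/-, a rise of 1.26 (SE 0.21, limma adjusted p = 0.00513). The pools thus moved in opposite directions with no overlap, and their mean was 16.03 in WT and 16.09 in Lck-/- (limma adjusted p = 0.845). The single-pool calls ended with median centring, at -0.571 and 0.673 (limma adjusted p = 0.141 and 0.076). That scaling moved the medians of the other genes against both calls, to 0.425 and -0.325. The ratio call still passed, at 1.24 (limma adjusted p = 0.00208). With crossed dye swaps the ratio gave adjusted p = 0.00832 and without WT replicates 1 and 2 it gave 0.0415.

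Zfp658 read -2.80, -2.72, -3.11 and -2.32 in WT and -1.61, -0.86, -1.10 and -0.45 in Lck-/-, again with no overlap. The difference was 1.73 (SE 0.24, limma adjusted p = 0.00368). Its sub-polysomal level fell from 15.75 ± 0.18 to 14.21 ± 0.46 (SD, n = 4 each), by 1.54 (SE 0.21, limma adjusted p = 0.00232), and its polysomal level differed by 0.20 without passing. The ratio call ended without WT replicates 1 and 2 (adjusted p = 0.0542) and with median centring (0.717, adjusted p = 0.0521).

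The probes of Zfp408 and Zfp658 share sequence with those of many other genes. Alignment of all 55681 probes with each other found that the Zfp408 probe, at chr2:91483850-91483909 (mm9, minus strand), shares sequence with probes of 30 other gene names, and the Zfp658 probe, at chr7:50830763-50830822 (mm9, plus strand), with 20. The stretches below show the identity, with the bases that both probes hold in capitals, 25 of 28.
Zfp408, chr2:91483868-91483895: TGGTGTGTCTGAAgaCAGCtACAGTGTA
Zfp658, chr7:50830768-50830795: TGGTGTGTCTGAAagCAGCgACAGTGTA
Of the genes outside the Zfp set whose probes match that of Zfp408, 19 were tested. Their median WT ratio was -3.458, their median ratio difference 2.348 and their median sub-polysomal difference -1.046. Among them 18 rose in the ratio and 19 fell in the sub-polysomal level. How much of the signal of these probes came from the named genes was not tested.

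Probes that share sequence with probes of at least 5 other gene names are called repeat-bearing below. They made up 2.23% of all probes and 5.07% of the 533 Zfp probes, and 12 of the 170 Zfp genes were read by one. These were Zfp408, Zfp442, Zfp53, Zfp534, Zfp658, Zfp663, Zfp72, Zfp930, Zfp931, Zfp936, Zfp937 and Zfp947. All 12 had a WT ratio below 0 (median -0.906), 11 had a ratio difference above 0 (median 0.399) and all 12 had a lower sub-polysomal level in Lck-/-, of which 8 passed (10.8% of all genes fell in it). The 263 other genes with such probes had a median WT ratio of -1.139, a median ratio difference of 0.58 and a median sub-polysomal difference of -0.331. Of these, 57 rose and 1 fell in the ratio. When repeat-bearing probes were left out, 160 Zfp genes remained and 0 passed for the ratio difference in limma (20 at unadjusted p below 0.05), while the WT median was -0.295 against 0.067 for the others.

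**Figure D3:**
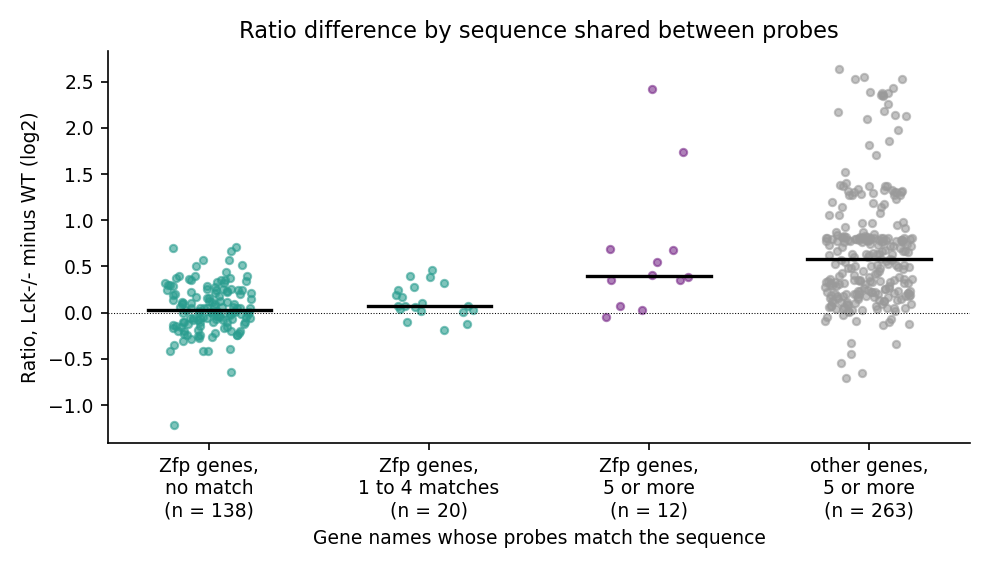
Ratio difference (Lck-/- minus WT, log2) of single genes, by how many other gene names have probes that match the gene's own probe, with black bars at the medians. The median is 0.025 for the 138 Zfp genes with no match, 0.074 for the 20 with 1 to 4, 0.399 for the 12 with 5 or more and 0.58 for the 263 other genes with 5 or more.

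The probes of some of these genes hold the linker that joins fingers. Whether it lies in the stretch shared with other probes was not tested. The linker between fingers, threonine, glycine, glutamate, lysine and proline in its usual form, was searched as the DNA pattern of these amino acids, with the last base of each codon free. It was found on the strand of the probe in 37 of all probes (0.066%) and in 15 of the 533 Zfp probes (2.81%), and on the opposite strand in 4 and 0. Of the tested Zfp genes, 6 were read by such a probe. The probes of those with an open reading frame are shown, with the linker in capitals, to show what they have in common.
Zfp947, chr17:22282838-22282897, minus strand: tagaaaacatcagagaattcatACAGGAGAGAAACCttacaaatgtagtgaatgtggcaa
Zfp442, chr2:150234210-150234269, minus strand: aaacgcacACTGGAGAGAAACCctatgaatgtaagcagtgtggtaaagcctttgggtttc
Zfp936, chr7:50445732-50445791, plus strand: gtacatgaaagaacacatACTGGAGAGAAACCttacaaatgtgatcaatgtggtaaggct
Zfp72, chr13:74509332-74509391, minus strand: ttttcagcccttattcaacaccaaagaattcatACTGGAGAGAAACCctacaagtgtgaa
Zfp14, chr7:30823139-30823198, minus strand: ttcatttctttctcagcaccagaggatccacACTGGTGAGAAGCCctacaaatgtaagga
The first 4 share sequence with probes of 31, 39, 46 and 18 other gene names, of which 12, 8, 13 and 8 are zinc finger genes by name, and the Zfp14 probe with 1 other. All 6 genes had a lower sub-polysomal level in Lck-/-, with a median difference of -0.465, and 3 passed (10.8% of all genes fell in it). Apart from Zfp14, which differed by only -0.038, these genes are among the 12 with repeat-bearing probes described above. Their falls are therefore not a separate result.

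Zfp46 had the smallest p for a lower ratio in Lck-/-, without passing. It read 0.66, 0.39, 0.59 and 0.52 in WT and -0.58, 0.07, 0.02 and 0.08 in Lck-/-. The groups did not overlap and Lck-/- replicate 1 lay far below the other 3. The difference was -0.64 (SE 0.16, limma adjusted p = 0.0555), and without Lck-/- replicate 1 it was -0.482 (adjusted p = 0.042).

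The third comparison asks which Zfp mRNAs differed in the mean of both fractions, the level least touched by how the pools are centred. Of the 170 genes 10 rose (5.88%) and 17 fell (10.0%), where 10.5% of all genes rose and 10.1% fell (20.6% in either direction). The median difference was -0.012, against 0.049 for the others, and 28 had no overlap of the 4 and 4 extracts (26.2% of all genes). Median centring leaves this mean as it is by construction. With crossed dye swaps 9 rose and 10 fell, and all 19 of these were among the 27. Leaving out WT replicates 1 and 2 gave 4 rises and 0 falls, with slide 1 alone 4 and 8 and with slide 2 alone 8 and 9. Leaving out single extracts gave totals from 8 without Lck-/- replicate 4 to 31 without Lck-/- replicate 1. Of the WT extracts, leaving out replicate 2 gave 10, replicate 3 gave 11, replicate 4 gave 15 and replicate 1 gave 16, and leaving out Lck-/- replicate 3 gave 10.

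Among the genes that rose, Zfp622 is the mouse form of a factor that helps the large ribosomal subunit mature. It read 13.88, 13.87, 13.56 and 13.66 in WT and 14.15, 14.26, 14.40 and 14.44 in Lck-/- (probe at chr15:25927103-25927162, mm9). Every Lck-/- extract lay above every WT extract, and the difference was 0.57 (SE 0.13, limma adjusted p = 0.0126). Zfp828 (Champ1) read 9.31, 9.06, 8.84 and 9.02 in WT and 9.54, 9.87, 9.54 and 9.72 in Lck-/-, a rise of 0.61 (SE 0.14, limma adjusted p = 0.0128) with no overlap. Zfp296, a gene best known from pluripotent cells, read 9.43, 9.47, 9.82 and 9.34 in WT and 10.07, 9.94, 10.30 and 10.40 in Lck-/-, a rise of 0.66 (SE 0.15, limma adjusted p = 0.0131). The rises of Zfp622, Zfp828 and Zfp296 passed on leaving out any single extract and with crossed dye swaps, and that of Zfp296 ended without WT replicates 1 and 2 (adjusted p = 0.0932).

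Zfp553 rose by 0.52 (adjusted p = 0.0214), Zfp568 by 0.47 (adjusted p = 0.0334) and Zfp259 by 0.64 (adjusted p = 0.0347). Zfp259 is Zpr1, a partner of the survival motor neuron protein. The calls of these 3 genes ended on leaving out any of 4, 5 and 6 extracts respectively, with the highest adjusted p at 0.0653 and 0.0982 without Lck-/- replicate 4 for Zfp553 and Zfp259, and at 0.0966 without WT replicate 2 for Zfp568.

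Among the genes that fell, Zfp429 lies in a zinc finger cluster of chromosome 13 (probe at chr13:67490657-67490716, mm9). It read 9.36, 9.38, 9.22 and 9.15 in WT and 8.46, 8.79, 8.72 and 8.50 in Lck-/-. The groups stood apart, and the fall was 0.66 (SE 0.12, limma adjusted p = 0.00723). Zfp41 read 8.33, 8.38, 8.43 and 8.50 in WT and 7.40, 8.08, 7.78 and 7.81 in Lck-/-, a fall of 0.64 (SE 0.15, limma adjusted p = 0.0143). Zfp41 is also among the members just inside the detection filter, on 7 WT and 6 Lck-/- arrays, so its Lck-/- values lie near background. Zfp51 fell by 0.54 (SE 0.12), Zfp68 by 0.57 (SE 0.14), Zfp414 by 0.48 (SE 0.12) and Zfp658 by 0.67 (SE 0.15), with limma adjusted p from 0.0149 to 0.0179. None of these falls passed without WT replicates 1 and 2. Zfp51 ended without WT replicate 2 (adjusted p = 0.0521), Zfp68 without WT replicate 3 (adjusted p = 0.0508) and Zfp414 without any of 3 extracts (highest adjusted p = 0.0557 without Lck-/- replicate 4).

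**Figure D4:**
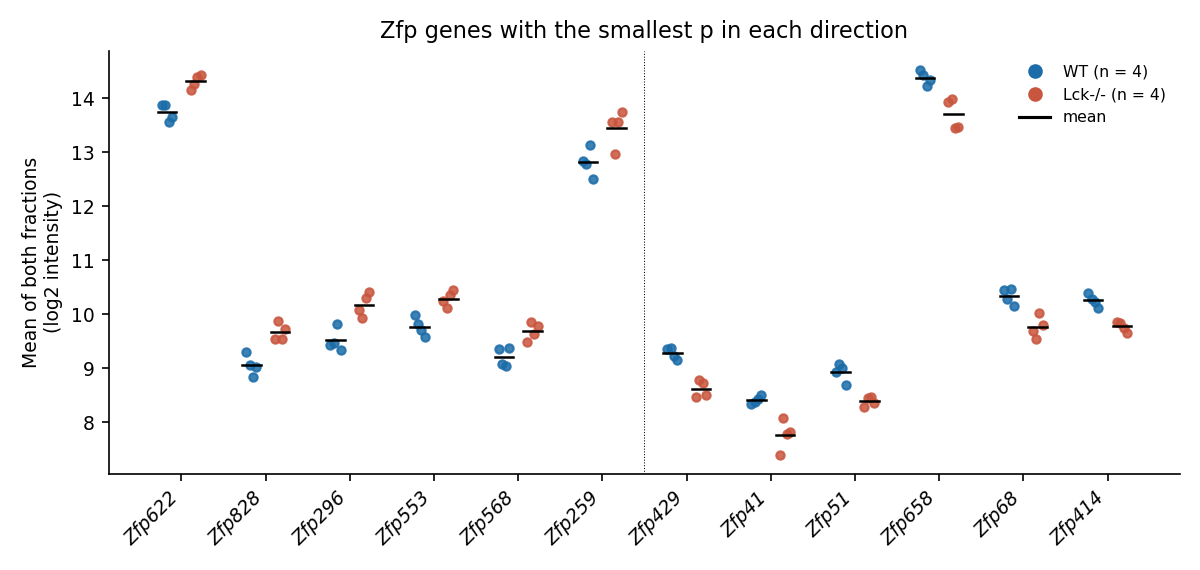
Mean of both fractions (log2 intensity, y axis) in 4 WT and 4 Lck-/- extracts for the 6 Zfp genes with the smallest p that rose (left of the dotted line) and the 6 that fell (right), with black bars at the means. The groups do not overlap in 11 of the 12 genes, the exception being Zfp259.

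The last comparisons take each pool by itself. In the polysomal level 7 Zfp genes rose (4.12%) and 4 fell (2.35%), where 6.92% of all genes rose and 8.50% fell (15.4% in either direction), and the median difference was 0.013 against 0.044. In the sub-polysomal level 10 rose (5.88%) and 20 fell (11.8%), where 10.9% and 10.8% of all genes did (21.7% in either direction), and the median was -0.044 against 0.061. These splits depend on the scaling. With median centring 0 rose and 21 fell in the polysomal level (21.6% of all genes in either direction). In the sub-polysomal level 44 rose and 1 fell (44.0% of all genes). The medians were then -0.305 against -0.325 and 0.253 against 0.425. The sub-polysomal median of the Zfp genes thus lay below that of the others under both scalings, also on slide 1 (-0.063 against 0.07) and on slide 2 (0.014 against 0.052). Single extracts moved both counts. The 11 polysomal calls became 26 without Lck-/- replicate 1, 2 without Lck-/- replicate 3 or 4, and between 2 and 5 on leaving out a WT extract. The 30 sub-polysomal calls became 11 without Lck-/- replicate 3 or 4, 16 without WT replicate 2 and 15 without WT replicate 3. Slide 1 alone called 0 genes in the polysomal level in limma (20 at unadjusted p below 0.05) and 40 in the sub-polysomal level, and slide 2 alone 25 and 4.

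Of the genes that rose in the polysomal level, Zfp622 was up by 0.58, Zfp296 by 0.61, Zfp568 by 0.65, Zfp828 by 0.66 and Zfp329 by 0.71 (adjusted p from 0.0174 to 0.0451). Zfp791 read 12.67, 12.28, 11.35 and 12.73 in WT and 12.80, 13.79, 13.29 and 14.33 in Lck-/-, a rise of 1.29 (SE 0.36, limma adjusted p = 0.0339). Its groups only just stood apart. Zfp41 fell by 0.78, Zfp429 by 0.63, Zfp800 by 0.56 and Zfp414 by 0.51. With crossed dye swaps Zfp408 was the single polysomal call left (5.21% of all genes were called). Without WT replicates 1 and 2 there were 0 (23 at unadjusted p below 0.05), where 1.09% of all genes were called. With median centring the rise of Zfp622 was 0.038 (adjusted p = 0.935) and the 4 falls still passed. That scaling moved the polysomal median of the other genes from 0.044 to -0.325. Lost rises and passing falls there are therefore no separate check of these genes. Zfp408 alone of the 11 polysomal calls passed on leaving out any single extract, and the highest adjusted p of the other 10 ranged from 0.0525 for Zfp329 without WT replicate 3 to 0.132 for Zfp800 without Lck-/- replicate 4.

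Of the genes that rose in the sub-polysomal level, Zfp296 was up by 0.71, Zfp365 by 0.61, Zfp828 by 0.57, Zfp622 by 0.56, Zfp191 by 0.52 and Zfp407 by 0.41. Zfp191, a factor needed for myelination in mouse, read 10.75 to 11.14 in WT (10.98 ± 0.17, SD, n = 4) and 11.28 to 11.64 in Lck-/- (11.50 ± 0.17, SD, n = 4). Its groups stood apart. A second detected probe of Zfp191 gave a sub-polysomal difference of only 0.083, against 0.522 from the probe used. The 6 rises also passed with median centring, which moved the sub-polysomal median of the other genes from 0.061 to 0.425. Passing there is therefore no separate check of these rises. Zfp296 passed on leaving out any single extract, and the highest adjusted p of the other 5 ranged from 0.0603 for Zfp622 to 0.0802 for Zfp407, both without Lck-/- replicate 3.

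Besides Zfp408 and Zfp658, the sub-polysomal falls with the smallest p were those of Zfp52, by 0.89 (SE 0.19, limma adjusted p = 0.00935), Zfp442, by 0.70, Zfp68, by 0.70, and Zfp429, by 0.69. Zfp936, read by a repeat-bearing probe, also fell by 0.70 (limma adjusted p = 0.0322), while the difference of -0.73 of Zfp663, read by another, did not pass (limma adjusted p = 0.161). Zfp52 read 10.51, 10.60, 10.23 and 10.60 in WT and 9.75, 10.05, 9.37 and 9.20 in Lck-/-, with no overlap, and its polysomal level differed by -0.32 without passing. Zfp442, read by a finger-linker probe, stood at 12.19, 11.93, 12.21 and 12.18 in WT and 11.44, 11.72, 11.40 and 11.14 in Lck-/-. Zfp68 stood at 10.77, 10.66, 10.86 and 11.06 in WT and 9.90, 10.26, 10.32 and 10.07 in Lck-/-. The falls of Zfp52, Zfp442, Zfp68 and Zfp429 passed on leaving out any single extract, and with median centring they were -0.509, -0.25, -0.315 and -0.372 and did not pass. That scaling raised the sub-polysomal median of the other genes to 0.425, so the loss of these calls does not single out these genes. With crossed dye swaps 13 of the 30 sub-polysomal calls remained, where 11.2% of all genes were called.

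**Figure D5:**
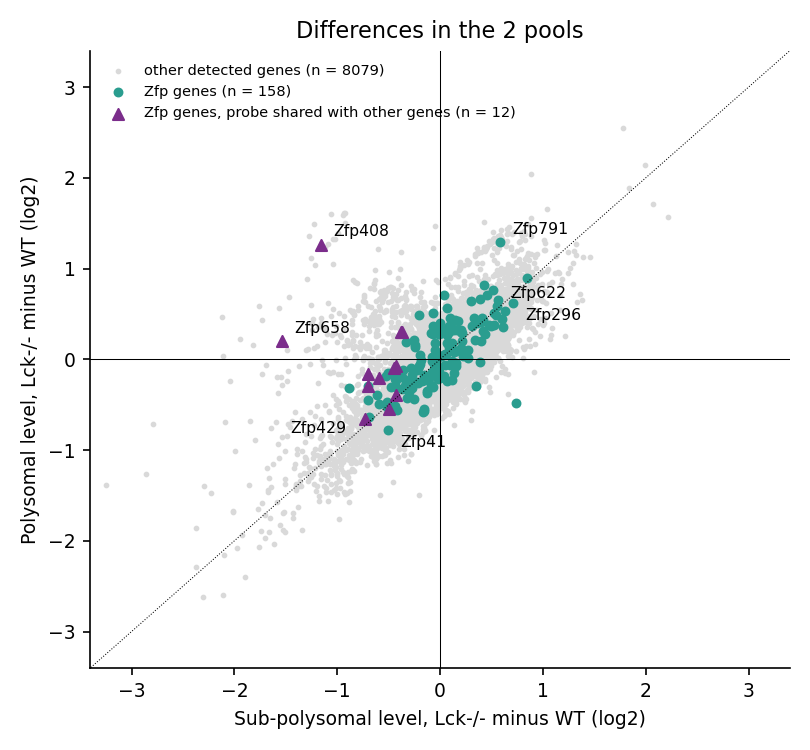
Difference between genotypes (Lck-/- minus WT, log2) in the sub-polysomal level (x axis) and the polysomal level (y axis) for single genes. Zfp genes are in colour, with triangles for the 12 read by repeat-bearing probes, and the other 8079 detected genes are in grey. Both differences followed each other over the 170 Zfp genes (r = 0.576), all 12 triangles lie left of 0, and Zfp408 stands apart at -1.16 and 1.26.

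The calls were also counted by whether other Zfp genes lay nearby. A probe of another Zfp gene lay within 500000 bases (mm9) for 105 of the 170 genes and for none of the other 65. In the sub-polysomal level 17 of the 105 fell (16.2%) and 3 rose (2.86%), and of the 65 without such a neighbour 3 fell (4.62%) and 7 rose (10.8%), where 10.8% of all genes fell and 10.9% rose. In the mean of both fractions 14 of the 105 fell (13.3%) and 4 rose (3.81%), and of the 65 3 fell (4.62%) and 6 rose (9.23%), where 10.1% of all genes fell and 10.5% rose. Without the 12 genes read by repeat-bearing probes the sub-polysomal counts were 11 and 3 of 95, and 1 and 7 of 63. The difference between these groups was not tested, and members of a cluster can share sequence. Of the chromosomes with at least 10 of the genes, chromosome 7 held 43, with 3 rises and 3 falls in the sub-polysomal level, chromosome 17 held 19, with 1 and 5, and chromosome 8 held 16, with 1 and 1. Chromosome 2 held 12, with 0 rises and 5 falls, chromosome 13 held 11, with 0 and 2, and chromosome 6 held 10, with 0 and 0. The other 59 genes had 5 rises and 4 falls. The falls on chromosome 2 include those of Zfp408 and Zfp442, both read by repeat-bearing probes. Counts per chromosome were not repeated without such probes. With median centring 44 Zfp genes rose and 1 fell in the sub-polysomal level, so the sub-polysomal counts here hold for the loess scaling only.

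The partners through which KRAB zinc finger proteins act were described from a list of 21 genes, 19 of which were detected. In the mean of both fractions 4 rose (21.1%) and 1 fell (5.26%), where 10.5% of all genes rose and 10.1% fell. The 5 calls among 19 genes compare with 20.6% of all genes in either direction. The histone chaperone Daxx rose by 0.58 (SE 0.14, limma adjusted p = 0.0207), and Atf7ip, a partner of Setdb1, rose by 0.47, as did the DNA methyltransferase Dnmt3b by 0.49 and the remodeller Chd4 by 0.50. The call of Chd4 ended with crossed dye swaps (adjusted p = 0.052). The HP1 protein Cbx1 fell by 0.65 (SE 0.14, limma adjusted p = 0.0116). Trim28 differed by 0.10 (SE 0.35, limma adjusted p = 0.86) and Setdb1 by 0.10 (SE 0.15, limma adjusted p = 0.662). In the ratio difference 1 rose and 0 fell, where 2.81% of all genes rose and 1.05% fell. The riser was the remodeller Chd3, by 0.51, just inside the threshold (SE 0.12, limma adjusted p = 0.04996). The WT ratio of the 19 genes had a median of 0.269, above the median of the Zfp genes. Of the 19, 10 were higher and 1 lower, where 33.5% of all genes were higher and 28.8% lower.

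In all, 39 of the 170 Zfp genes (22.9%) passed at least 1 of the 4 comparisons between genotypes, where 30.3% of all genes did, and 131 passed none. In the polysomal level, the sub-polysomal level and the mean alike 6 passed (3.53%), against 8.50% of all genes. Of the 10 members with 6 arrays well above background in the poorer genotype, the fewest the detection filter allows, the 3 dimmest were Zfp41, Zfp617 and Zfp825, with WT polysomal levels of 8.58, 7.76 and 7.72. Of the 13 Zfp genes with 5 such arrays, which the filter left out, the 3 brightest were Zfp809, Zfp160 and Zfp58, with 7.95, 7.78 and 8.21.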

How the data were processed

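RNA of the sub-polysomal and polysomal pools of 8 extracts was measured on 16 two-colour Agilent arrays, and 1.5 µl of RNA per pool was labelled whatever its mass, per the labels. Per the file headers, the deposited files give raw intensity of spot and background from Agilent Feature Extraction 10.7.3.1 and processed intensity, corrected for background and dye by that software. Deposited yes-or-no marks (unit other) show spots above background, saturated spots (0 here) and outliers. The authors' table holds normalised log2 ratios of each genotype, used as an alternative. Its centring is not given in the sources used here, and the submitters' processing notes name limma without a version.

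Mean intensities were corrected with normexp (offset 50) and ratios normalised by loess, with controls and outliers at weight 0. Levels were scaled with Aquantile, and arrays of an extract were averaged. The brightest probe stood for a gene. RefSeq genes (GRCm38.p6, names only) were found for 27235 probes by accession, 3581 by symbol and 569 by synonym, and 24296 probes without a gene were left out. limma 3.58.1 in R 4.3.3 fitted all 8 extracts in one model over 8249 genes, with Benjamini-Hochberg adjustment and calls at 0.05. Standard errors (SE) are moderated. On simulated data with 200 genes changed by 1 log2 unit, 81% were recovered for the ratio, 72% for the polysomal level, 84% for the sub-polysomal level and 82% for the mean, among 8249 genes. Probes were aligned with BLAST 2.17.0 (word size 11, at least 40 bits). The number of extracts limits the precision.

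The genes named are the 6 with the smallest p in each direction per comparison, the 5 highest and 5 lowest WT ratios, the 5 brightest, those with repeat-bearing probes and the 3 on each side of the filter (ties by brightness). The members and lists were chosen with earlier results of these data known. The alternatives changed background correction, normalization, filter, probe choice, slide, dye orientation, pairing and the extracts used. Replicate numbers did not pair the genotypes, with correlations of the ratio deviations of 0.057, -0.172, 0.258 and -0.241.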

Additional observations from a re-analysis of the deposited data

Results flagged for a closer look

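Among the members named in the text, 98 sets of 4 extracts were checked for a value far from the other 3, by Dixon's test at 95%, which chance passes in about 5% of sets. Such a value was found in 2. The ratio of Zfp46 in Lck-/- replicate 1 was -0.58, where the other 3 Lck-/- extracts lay between 0.02 and 0.08. The sub-polysomal level of Zfp442 in WT replicate 2 was 11.93, where the other 3 WT extracts lay between 12.18 and 12.21.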

How the results depend on the processing

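Of 1074 values of named Zfp genes under other settings, 853 kept their direction and their side of the threshold (the 12 of the mean with median centring by construction), 214 kept the direction but no longer passed, 5 newly passed (all Zfp46 in the ratio) and 2 reversed, the WT ratios of Zfp663 and Zfp932 at 0.126 and 0.34 in the authors' ratios. In those ratios the WT median of the other genes was 1.785, and with each column centred 0 of the values reversed. Several other settings could hardly change a direction. Crossed dye swaps, the replicate block and the fit of 16 arrays kept the Zfp median differences of 0.052, 0.013, -0.044 and -0.012. Leaving out an Lck-/- extract kept the median WT ratio of -0.338. The low number of reversals is therefore partly built in. The counts of Zfp genes called moved more. Percentages in brackets below give the share of all genes called in the same setting. For the ratio difference the count of 2 became 44 with median centring, 80 without normalization, 143 in the authors' ratios, 16 in these with each column centred, 1 without WT replicates 1 and 2, 1 with the polysomal pool in Cy3 alone, 0 without repeat-bearing probes (20 at unadjusted p below 0.05 in limma) and 0 when these were left out with crossed dye swaps (6 at unadjusted p below 0.05 in limma). The 98 calls against 0 in Lck-/- (56.2%) became 37 with median centring (31.6%). The 11 polysomal calls (15.4%) became 21 with median centring (21.6%), 33 without normalization (29.5%), 7 without the filter (5.39%) and 4 with the replicate block (13.6%). They became 1 with crossed dye swaps (5.21%), 0 without WT replicates 1 and 2 (1.09%), 0 on slide 1 (1.58%) and 25 on slide 2 (21.2%). With 16 arrays and slide and dye terms they were 18 (18.1%). With crossed dye swaps and no repeat-bearing probes they were 0 (5.17%), with 30 at unadjusted p below 0.05 in limma. The 30 sub-polysomal calls (21.7%) became 49 without normalization (45.9%), 12 with the replicate block (12.1%) and 13 with crossed dye swaps (11.2%). They became 12 without WT replicates 1 and 2 (12.5%), 4 on slide 2 (2.25%) and 10 with crossed dye swaps and no repeat-bearing probes (12.2%). The 27 calls in the mean (20.6%) became 14 with the replicate block (15.9%) and 4 without WT replicates 1 and 2 (7.89%). They became 12 on slide 1 (14.5%), 17 on slide 2 (15.7%) and 17 with crossed dye swaps and no repeat-bearing probes (17.9%). Leaving out single extracts gave 2 to 5 for the ratio difference (1.25% to 5.37%) and 2 to 26 for the polysomal level (6.05% to 23.3%). It gave 11 to 39 for the sub-polysomal level (11.2% to 21.5%) and 8 to 31 for the mean (9.84% to 23.9%). The counts against 0 stayed within 1.5 times. Shared replicate numbers did not pair the samples, so the replicate block is given as a count only. The settings with every gene name on the array, with protein-coding genes alone, and with crossed dye swaps and no repeat-bearing probes were chosen after seeing the data. The gap of the median WT ratio between Zfp and other genes ranged from -0.466 to -0.31 under the settings that kept the filter, and was -0.084 without it. The cause of these changes was not tested, and some settings also held fewer extracts or arrays.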

Other observations

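Zfp628 had the brightest probe of the detected Zfp genes, at 17.04 ± 0.22 in WT and 17.18 ± 0.06 in Lck-/- (SD, n = 4 each) in the mean of both fractions. Its second probe, also well above background on all arrays, read 8.50. The WT ratio was -0.776 from the first probe and -0.058 from the second, and the ratio difference 0.696 and -0.098. Neither probe shares sequence with the probe of another gene name, and the cause of the gap was not tested. Over the 35 genes with 2 detected probes, the probes had the same sign in 21 for the ratio difference (r = 0.374), in 23 for the sub-polysomal difference (r = 0.382) and in 22 for the polysomal difference (r = 0.463).

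Zfp580, chosen after its values were seen, had the lowest ratio difference of the 170 genes. It read -1.15, -1.43, -2.21 and -0.40 in WT and -2.16, -1.33, -3.09 and -3.48 in Lck-/-. The groups overlapped, and the difference of -1.22 did not pass (limma adjusted p = 0.182).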
